A study of Sus scrofa domesticus with 4 samples.

Results

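Interleukins, chemokines and their receptors were described in cultured pig myometrium, the muscular wall of the uterus, kept as explants with or without orexin A (OXA). The members were all genes on the array whose symbol is IL followed by a digit or begins with CCL, CCR, CXCL or CXCR, together with AMCF-II and ACKR1. CXCL10 and CXCL11 were left out. The rule found 90 probes of 68 genes among the 3029 genes that could be named on the array. The tissue came from 4 gilts, Large White x Polish Landrace crosses aged 7 to 8 months, on days 15 to 16 of gestation, with no transgene or other genetic change. Explants of 100 mg and 3 mm thickness from the middle of the uterine horn were preincubated for 2 h and then cultured for 24 h with OXA or without it, in medium with 5% stripped calf serum that both groups shared. The OXA concentration is 10 nM per the sample labels but 10 µM per the series' design text, and the conflict could not be resolved here. Each of 4 two-colour Agilent arrays compared OXA-treated with non-treated tissue, each labelled with its own dye. The arrays are called arrays 1 to 4 and served as 4 replicates. The cultures were run in duplicate within 4 experiments, and it is not stated plainly whether an animal gave the RNA in both dyes of its array. An explant keeps all cell types of the cut tissue for a day without blood supply, so in these bulk samples fewer cells of a type and less RNA per cell cannot be told apart.

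Interleukins are secreted proteins through which leukocytes and tissue cells signal to each other, and most act through receptor chains that start JAK-STAT or NF-kappaB signalling. Chemokines are small secreted proteins that bind to G protein-coupled receptors and direct the movement of leukocytes, and the CC and CXC families are named for the spacing of their cysteines. In the pregnant uterus they recruit and position macrophages, neutrophils and lymphocytes, and the elongating pig conceptus itself secretes an interleukin-1 beta.

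Detection was taken from the scanner's flag for a probe that is well above background. A probe was tested where it carried this flag in 3 or more of the 4 OXA channels or of the 4 non-treated channels. This held for 46 of the 90 member probes and for 37 of the 68 genes (54.4%), beside 65.5% of all named genes. The 7 CXC chemokines all passed, each with a probe above background in both channels of all 4 arrays. Of 15 CC chemokines 11 passed, of 11 chemokine receptors 6, of 21 interleukins 9 and of 14 interleukin receptors 4.

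The genes that were never well above background, in either channel of any array, numbered 21. They included the cytokines made chiefly by T helper cells, namely IL2, IL4, IL5, IL9, IL13, IL17A and IL21. The subunits of interleukin-12 and interleukin-23 (IL12A, IL12B and IL23A) were not detected either, nor were the receptor chains IL2RA, IL2RG, IL12RB2, IL13RA2, IL23R and IL1RAPL1. Among chemokines and their receptors this group held the eotaxin-type CCL24, the epithelial CCL27 and CCL28, and the receptors CCR3 and CXCR6. Another 10 genes were above background at times but too seldom for a test. These were CCL26, CCR2, CCR9, CCRL2, IL7, IL29, IL6R, IL7R, IL12RB1 and IL18R1. All 10 were detected in the non-treated channel of array 4, where 61.1% of all probes carried the flag, beside 39.9% to 49.7% in the other 7 channels. CCRL2, IL6R and IL7R were also detected with OXA on array 3, and IL29 and IL12RB1 with OXA on array 4. A missing flag gives no level, so these genes have no ratio here.

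**Figure D1:**
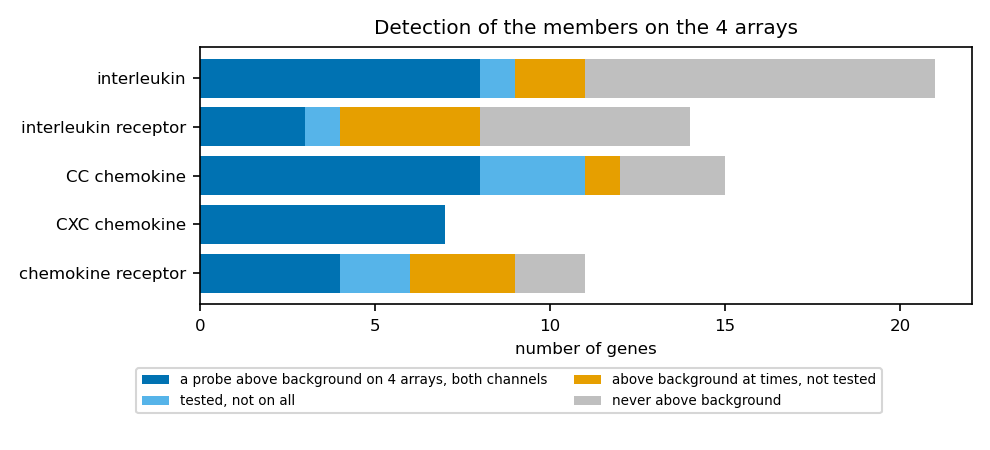
Number of member genes by role, coloured by how often a probe of the gene was well above background. All 7 CXC chemokines were detected in both channels of all 4 arrays, while 10 of 21 interleukins and 6 of 14 interleukin receptors were never above background.

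All ratios below are log2 of OXA over non-treated from the deposited table, 1 probe per gene, with the brightest tested probe standing for a gene. By the sample labels, OXA was in Cy5 for arrays 1 and 3 but in Cy3 for arrays 2 and 4, and the deposited ratios follow them. The labelling protocol is worded as if OXA were in Cy5 throughout. Over all 19505 tested probes, the correlation between arrays 2 and 4, of the same dye orientation, was r = -0.38, and between arrays 1 and 2 it was r = -0.59. It was r = 0.62 between arrays 1 and 4, and 0.23 between arrays 1 and 3. Arrays 2 and 3 had r = -0.30, and arrays 3 and 4 had r = -0.06. The direction of array 2 is therefore not settled by the data, and the mean of each member named below is also given with array 2 turned. That alternative was chosen after seeing the data.

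With the dyes as labelled, 0 of the 46 member probes were called. The limma fit across all probes, with a term for OXA and a term for dye, called 0.0% of 19505 probes (0 probes, lowest adjusted p = 0.998). At an unadjusted p under 0.05 it held 237 probes, which is 1.22% of those tested, and 1 of them was a member probe, that of ACKR1 (limma unadjusted p = 0.0428). So no member is described below as higher or lower with OXA, and the values are given as measured. The mean log2 ratio was positive for 24 of the 37 member genes (64.9%), beside 61.3% of all tested named genes, and the median over members was 0.12, beside 0.08 over named genes. With array 2 turned, 10 of the 46 member probes had an unadjusted p under 0.05 in limma, all with positive ratios. Over all probes 26.2% passed that threshold, counted in either direction, and 0 member probes were called after adjustment. Named genes leaned the same way with that array turned, with 23.9% positive and 6.88% negative on every array. In that reading the mean was positive for 30 of 37 (81.1%), beside 70.1% of named genes, and the median was 0.26, beside 0.21.

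CXCL8, the interleukin-8 that attracts neutrophils, was the only member with the same sign on all 4 arrays in the deposited ratios. Its probe read 13853, 38544, 10759 and 16216 with OXA on arrays 1 to 4, and 11576, 27801, 8218 and 8810 in the non-treated channels of the same arrays. The OXA channel was the brighter on every array, but the ranges of the 2 groups overlapped because array 2 was bright in both. The log2 ratios were 0.26, 0.47, 0.39 and 0.88, a mean of 0.50 ± 0.27 (SD, n = 4), or 1.41-fold (limma adjusted p = 0.998). Of all tested named genes, 5.72% were positive on every array and 8.6% had 1 sign on every array, beside 1 of 37 members (2.70%) here. With normexp and loess CXCL8, CCL21, IL1B2 and ACKR1 each hold 1 sign on all 4 arrays, 10.8% of members beside 9.46% of named genes. With plain background subtraction ACKR1, CCL11 and IL16 do and CXCL8 does not, 8.11% of members beside 2.07% of named genes. With array 2 turned the mean of CXCL8 is 0.26, and under the protocol's wording, with OXA always in Cy5, it is -0.18.

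The other CXC chemokines differed in sign between arrays. CXCL2, which also attracts neutrophils, had log2 ratios of -0.11, -0.04, -0.66 and 1.14, a mean of 0.08 ± 0.76 (SD, n = 4), or 0.10 with array 2 turned. AMCF-II, a neutrophil chemotactic factor described from pig alveolar macrophages, had -0.30, -0.72, 0.24 and 0.37, a mean of -0.10 ± 0.50, or 0.26 turned. Neither of these neutrophil attractants followed the signs of CXCL8 on arrays 1 and 2. CXCL9, an interferon-induced attractant of T cells, had 0.50, 0.20, -1.35 and -0.26, a mean of -0.23 ± 0.81, or -0.33 turned. Its lowest ratio lay on array 3, where the non-treated channel read 5599 and the OXA channel 2198.

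Of the CXC chemokines that tissue cells make without an inflammatory stimulus, CXCL12, the ligand of CXCR4, had 0.31, -0.65, -0.30 and -0.29, a mean of -0.23 ± 0.40 (SD, n = 4), or 0.09 with array 2 turned. CXCL14, an attractant of monocytes and dendritic cells, had 0.86, -0.996, 0.65 and 0.10, a mean of 0.15 ± 0.83, or 0.65 turned. CXCL16, a membrane-bound chemokine that also binds oxidised lipids, had 0.80, -0.02, 0.47 and -0.53, a mean of 0.18 ± 0.58, or 0.19 turned. Its second probe had 0.85, 0.22, 0.57 and -0.88, so the sign on array 2 differed between the probes. The dye term of the limma fit called 0 probes (lowest adjusted p = 0.841). At an unadjusted p under 0.05 it held 479 (2.46%), 6 of them member probes, among which were the brightest probes of CCL11, CCL20 and CCR1, the other CCR1 probe and the dimmer probe of IL18, and neither CXCL16 probe.

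Several CC chemokines, grouped here by the order of their signs after the values were seen, were below 0 on arrays 1 and 2 and above 0 on arrays 3 and 4. CCL4, a macrophage inflammatory protein, had -1.25, -0.83, 0.38 and 1.07, a mean of -0.16 ± 1.07 (SD, n = 4), or 0.26 with array 2 turned. CCL3L1, of the same inflammatory group, had -0.88, -1.21, 0.60 and 1.18, a mean of -0.08 ± 1.15, or 0.53 turned. CCL8, a monocyte attractant, had -0.75, -0.69, 1.84 and 0.95, a mean of 0.34 ± 1.27, or 0.68 turned. The SD of each of these 3 genes was larger than 1, a 2-fold difference. CCL14, a plasma chemokine activated by proteases, had -0.61, -0.88, 0.08 and 0.41, a mean of -0.25 ± 0.60, or 0.19 turned. CCL2, the main monocyte attractant, had smaller ratios of -0.49, -0.15, 0.05 and 0.08, a mean of -0.13 ± 0.26, or -0.06 turned. A second CCL2 probe had 0.23, -0.09, 0.14 and 0.61 and not this order, so the place of CCL2 in the group rests on the probe chosen. With their brightest probes, these 5 genes shared their signs with IL6, AMCF-II and CXCR4, and the order was seen for 8 of 37 members (21.6%), beside 3.85% of all tested named genes. It was noticed in these data and was not tested. The CCL3L1 probe was not well above background with OXA on array 2 and in the non-treated channel of array 3, and CCL8 and CCL14 were not with OXA on array 2, so those ratios rest on a dim channel.

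The remaining CC chemokines did not share this order. CCL5, which attracts T cells and monocytes, had 0.65, -0.31, -0.85 and 0.26, a mean of -0.06 ± 0.65 (SD, n = 4), or 0.09 with array 2 turned. CCL11, the eosinophil attractant eotaxin, had 1.59, -0.81, 0.64 and -0.07, a mean of 0.34 ± 1.02, or 0.74 turned. CCL25, an attractant of thymocytes and gut lymphocytes, had 0.74, -0.07, -0.34 and 0.86, a mean of 0.29 ± 0.59, or 0.33 turned. For each of these 3 genes the SD as labelled was larger than the mean.

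CCL19 and CCL21 are the ligands of CCR7 that guide dendritic cells and T cells into lymphoid tissue. CCL19 had 0.88, -1.08, -0.05 and -0.83, a mean of -0.27 ± 0.88 (SD, n = 4), or 0.27 with array 2 turned. CCL21 had -0.41, -0.65, 0.01 and -0.23, a mean of -0.32 ± 0.28, or 0.80-fold. CCL21 and CXCL8 were the only 2 of 37 genes (5.41%) with a mean larger than its SD, beside 9.62% of named genes. The limma estimate for CCL21 is -0.22 without array 2, and the gene's mean is 0.00 with that array turned.

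CCL20, which attracts cells bearing CCR6 and is made by epithelium, read 167, 1181, 133 and 78.8 with OXA on arrays 1 to 4, and 193, 723, 279 and 42.3 without it. The ranges of the groups overlapped for the most part, and array 2 was the brightest in both. Its log2 ratios were -0.21, 0.71, -1.07 and 0.90, a mean of 0.08 ± 0.91 (SD, n = 4), or -0.27 with array 2 turned. Markers of uterine epithelium had median log2 ratios of -0.69, 2.06, -1.04 and 1.70 over 6 genes. These medians had the signs of CCL20 on every array, but KRT8 and SPP1 were above 0 on array 1. Of 10 listed markers 6 were on the array and tested, and 2 had a probe well above background in both channels of every array. The summed signal of the 6 ran from 5767 to 35218 with OXA and from 6336 to 15029.5 without it. The part of epithelium in the CCL20 ratios was not tested.

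**Figure D2:**
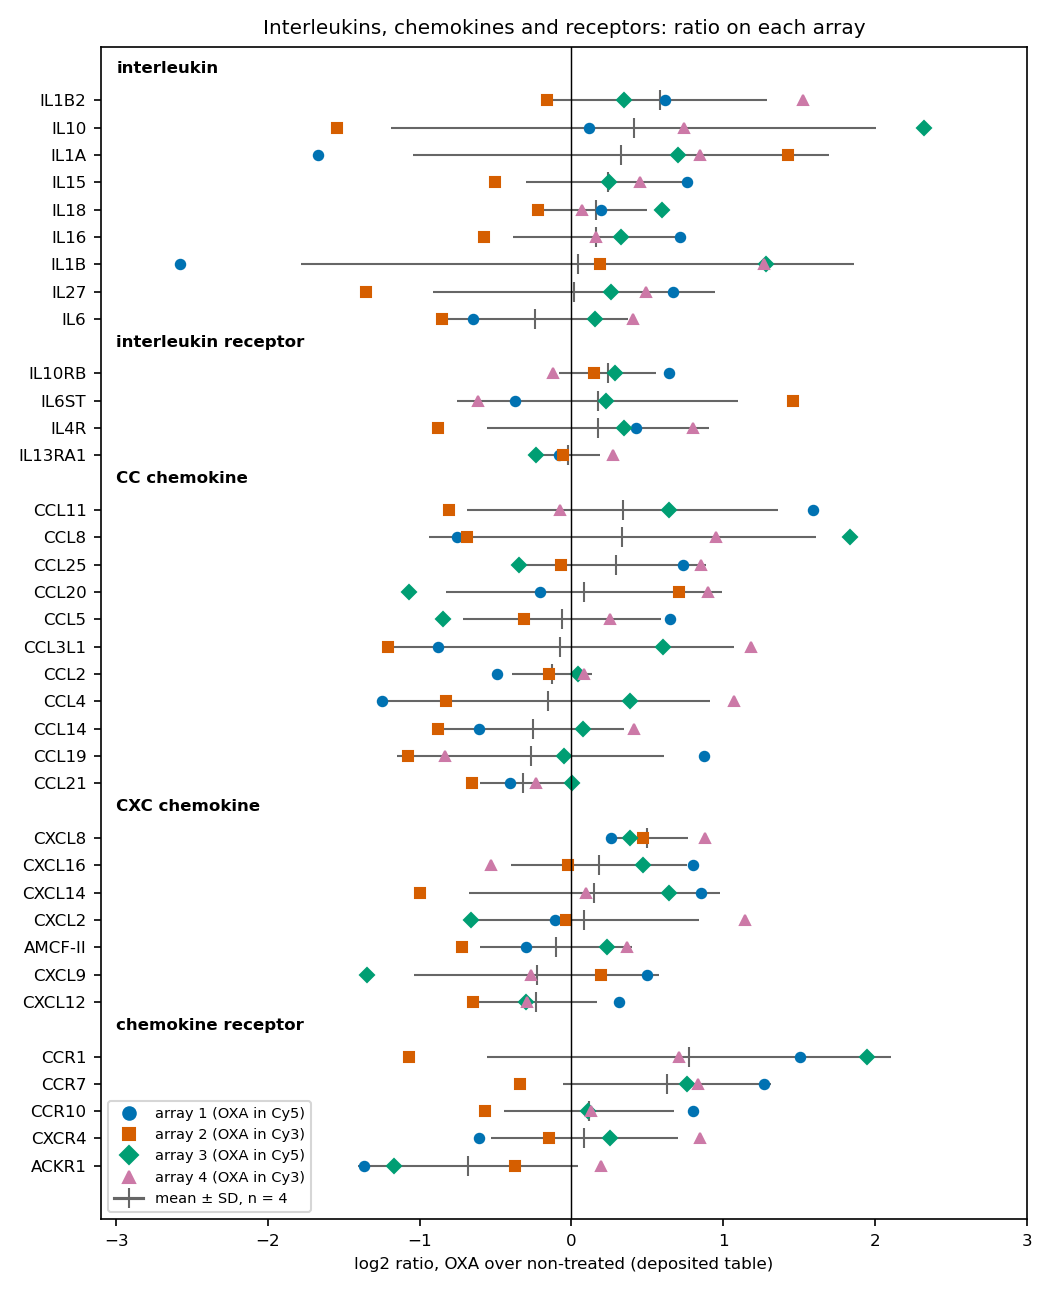
Log2 ratio of OXA over non-treated for the tested member genes named in the text, grouped by role, with a symbol for each array and the mean ± SD of 4 arrays. CXCL8 is the only gene with all 4 symbols on 1 side of 0, and the square of array 2 is the leftmost symbol for many genes, among them IL10, IL27 and CCR1.

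IL1B, IL10 and IL1A had the 3 largest SDs among the members. IL1B, a fever-inducing cytokine released by activated macrophages, read 433, 862, 770 and 1312 with OXA on arrays 1 to 4, and 2585, 757, 316 and 543 in the non-treated channels. The non-treated channel of array 1 was above all 4 OXA values, and the other 3 were below the OXA value of their own array. The log2 ratios were -2.58, 0.19, 1.28 and 1.27, a mean of 0.04 ± 1.82 (SD, n = 4), or -0.05 with array 2 turned. IL1A, the cell-associated alarm cytokine, read 68.4, 580.4, 172 and 215 with OXA and 218, 215, 106 and 119 without it. Array 1 again stood below the others, with log2 ratios of -1.67, 1.43, 0.70 and 0.85, a mean of 0.33 ± 1.37, or -0.39 turned. Both genes were below 0 on array 1 alone, an order held by 1.37% of named genes. Without array 1 their ratios are all positive, 0.19 to 1.28 for IL1B and 0.70 to 1.43 for IL1A, but limma called 0 member probes in that fit.

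IL1B2, the pig's second interleukin-1 beta gene, known from the elongating conceptus, is a near copy of IL1B, so its probes may also bind the other transcript. Of its 3 probes 1 was tested, with 0.62, -0.16, 0.35 and 1.53, a mean of 0.58 ± 0.71 (SD, n = 4), or 0.66 with array 2 turned. On array 1 it was positive where IL1B had -2.58.

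IL6, an inducer of the acute phase response, had log2 ratios of -0.65, -0.85, 0.15 and 0.40, a mean of -0.24 ± 0.61 (SD, n = 4). Its non-treated signal ranged from 4779 to 14456 over the arrays and its OXA signal from 5220 to 7998, so the groups overlapped. Its mean is 0.19 with array 2 turned. IL10, which restrains macrophage activation, had 0.12, -1.54, 2.33 and 0.74, a mean of 0.41 ± 1.60, or 1.18 turned. The IL10 probe was not well above background with OXA on array 2 (19.5) or in the non-treated channel of array 3 (20.1), and these are the arrays with its lowest and highest ratio.

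The other interleukins were IL15, IL16, IL18 and IL27. IL15, which keeps natural killer and memory T cells alive, had 0.76, -0.50, 0.25 and 0.45, a mean of 0.24 ± 0.54 (SD, n = 4), or 0.49 with array 2 turned. IL16, an attractant of CD4+ cells, had 0.72, -0.57, 0.33 and 0.17, a mean of 0.16 ± 0.54, or 0.45 turned. IL18, an inducer of interferon gamma that inflammasomes activate, had 0.19, -0.22, 0.60 and 0.07, a mean of 0.16 ± 0.34, or 0.27 turned. All 3 brightest probes were negative on array 2 and positive on the others, while a second IL18 probe was at -0.50 on array 4. IL27, a subunit of a cytokine that restrains T cells, had 0.67, -1.35, 0.26 and 0.49, a mean of 0.02 ± 0.93, or 0.69 turned.

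Among the interleukin receptors, IL4R, a chain of the receptors for interleukins 4 and 13, had 0.42, -0.88, 0.35 and 0.80, a mean of 0.17 ± 0.73 (SD, n = 4), or 0.61 with array 2 turned. IL13RA1, which pairs with IL4R, had -0.08, -0.05, -0.23 and 0.27, a mean of -0.02 ± 0.21, or 0.00 turned, and was not well above background in either channel of array 2. In the deposited ratios the 2 chains of this receptor thus differed in sign on arrays 1 and 3, where IL4R was above 0 and IL13RA1 below. With normexp and loess, the dim IL13RA1 probe is at 0.065 on array 3, so the difference in sign there depends on the processing. IL6ST, the signalling chain shared by the interleukin-6 family, had -0.37, 1.46, 0.23 and -0.61, a mean of 0.17 ± 0.93. It had the highest ratio of the 37 members on array 2, and its mean is -0.55 with that array turned. IL10RB, a chain shared by the interleukin-10 family, had 0.65, 0.15, 0.29 and -0.12, a mean of 0.24 ± 0.32, or 0.17 turned.

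Chemokine receptors held both the highest and the lowest mean of all members as labelled. CCR1, a receptor of monocytes and neutrophils for several CC chemokines, read 651, 189, 683 and 805 with OXA on arrays 1 to 4, and 229, 396, 177 and 492 without it. OXA was brighter on arrays 1, 3 and 4 and dimmer on array 2, and the ranges of the groups overlapped. The log2 ratios were 1.51, -1.07, 1.95 and 0.71, a mean of 0.77 ± 1.33 (SD, n = 4), or 1.71-fold. A second CCR1 probe averaged 0.72. Without array 2 the limma fit called both CCR1 probes higher with OXA (estimates of 1.22 and 1.21, adjusted p = 0.0279 and 0.0300), 2 of the 46 member probes. That fit called 1108 of 19505 probes, 265 of them (1.36%) higher, and has 1 residual degree of freedom. Its prior degrees of freedom were infinite, so a common variance was used for every probe. The spread of CCR1 itself over these arrays therefore did not enter its p-values. With array 2 turned, the mean of CCR1 is 1.31.

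CCR7, the homing receptor of dendritic and naive T cells, read 417, 172, 145 and 217 with OXA and 173, 218, 85.9 and 122 without it. Its signs followed those of CCR1, with log2 ratios of 1.27, -0.34, 0.76 and 0.83 and a mean of 0.63 ± 0.69 (SD, n = 4), or 1.55-fold. The mean is 0.80 with array 2 turned. CCR10, the receptor for CCL27 and CCL28, had 0.80, -0.57, 0.11 and 0.13, a mean of 0.12 ± 0.56, or 0.40 turned, with a dim OXA channel on array 2. Neither of its ligands was detected. CXCR4, the receptor for CXCL12, had -0.61, -0.15, 0.25 and 0.84, a mean of 0.09 ± 0.62, or 0.16 turned, while CXCL12 had the opposite sign on arrays 1, 3 and 4.

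ACKR1, the atypical receptor of venular endothelium and red cells that binds chemokines without signalling, read 74.4, 210.3, 68.3 and 289.5 with OXA on arrays 1 to 4, and 192, 272, 154 and 253 without it. The OXA channel was the dimmer on arrays 1, 2 and 3 and the brighter on array 4, and the ranges overlapped. The log2 ratios were -1.37, -0.37, -1.17 and 0.19, a mean of -0.68 ± 0.72 (SD, n = 4), or 0.62-fold. With normexp background correction and loess in place of the deposited ratios, its mean is -0.45 and all 4 arrays are negative. It is -0.49 with array 2 turned and -0.59 with OXA always in Cy5. Endothelial markers had medians of -0.52, -0.02, 0.06 and 0.54 over 5 of 6 genes on the array, with SELE not detected often enough. Their summed signal ran from 9638 to 18334 with OXA and from 15465 to 20177 without it. All 5 tested markers had a probe well above background in both channels of every array. The part of endothelium in the ACKR1 ratios was not tested, and none of the 5 listed red cell markers could be named on the array.

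**Figure D3:**
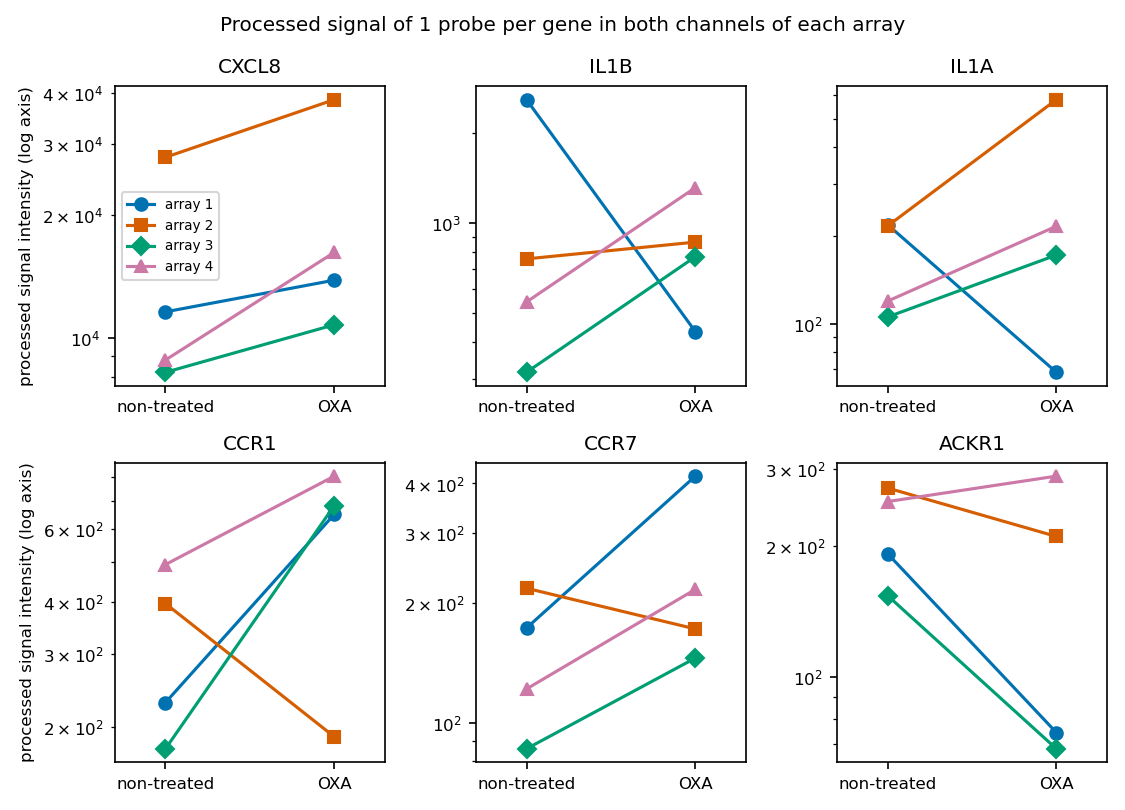
Processed signal of 1 probe for each of 6 genes in the non-treated and OXA channel, on a log axis, with a line for each array. CXCL8 slopes upward on all 4 arrays, ACKR1 downward on arrays 1, 2 and 3, and IL1B downward on array 1 only.

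Positive ratios were held by 21, 7, 28 and 28 of the 37 genes on arrays 1 to 4, or 56.8%, 18.9%, 75.7% and 75.7%. Over all tested named genes the shares were 66.6%, 33.4%, 52.6% and 68.5%, so the members lay below that share on arrays 1 and 2 and above it on arrays 3 and 4. The median over members was 0.26, -0.50, 0.26 and 0.40. The medians over all tested named genes were 0.25, -0.22, 0.02 and 0.29, so named genes as a whole were also lowest on array 2. By role, interleukins had array medians of 0.19, -0.50, 0.35 and 0.49, and chemokine receptors 1.00, -0.47, 0.51 and 0.45. CC chemokines had -0.41, -0.69, 0.05 and 0.41, below 0 on array 1 as well. CXC chemokines (0.31, -0.04, 0.24 and 0.10) and interleukin receptors (0.17, 0.05, 0.26 and 0.07) stayed nearer to 0. The means were positive for 8 of 9 interleukins, 3 of 4 interleukin receptors, 4 of 11 CC chemokines, 4 of 7 CXC chemokines and 5 of 6 chemokine receptors. With array 2 turned these counts are 7, 3, 9, 6 and 5.

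The order above 0 on arrays 1, 3 and 4 and below 0 on array 2 was the most common, with 11 of 37 members (29.7%), beside 23.9% of all tested named genes. These were IL1B2, IL10, IL15, IL16, IL18, IL27, IL4R, CXCL14, CCR1, CCR7 and CCR10. With array 2 turned they are the 11 members that are positive on every array. The median over 8 macrophage markers had the same order, at 0.70, -0.66, 1.98 and 0.73. Among the single markers AIF1, VSIG4, C1QA, C1QB and C1QC had it. CD163 had -0.64, 0.30, 1.18 and -0.32, while CD14 was below 0 on array 3 and MRC1 on array 4. Of 11 listed macrophage markers all 8 on the array were tested, 5 with a probe well above background in both channels of every array. The summed signal of the 8 ran from 1309 to 9092 with OXA and from 1424 to 5404 without it. NKG7 and GZMB, the 2 markers of T and natural killer cells that were tested, had medians of 0.66, -0.42, 0.59 and 0.28. The other 7 on the array, CD2, CD3D, CD3E, CD3G, CD4, CD8A and LCK, were not detected often enough, and neither were the 3 B cell markers on the array. The part of macrophages or lymphocytes in the members' ratios was not tested.

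**Figure D4:**
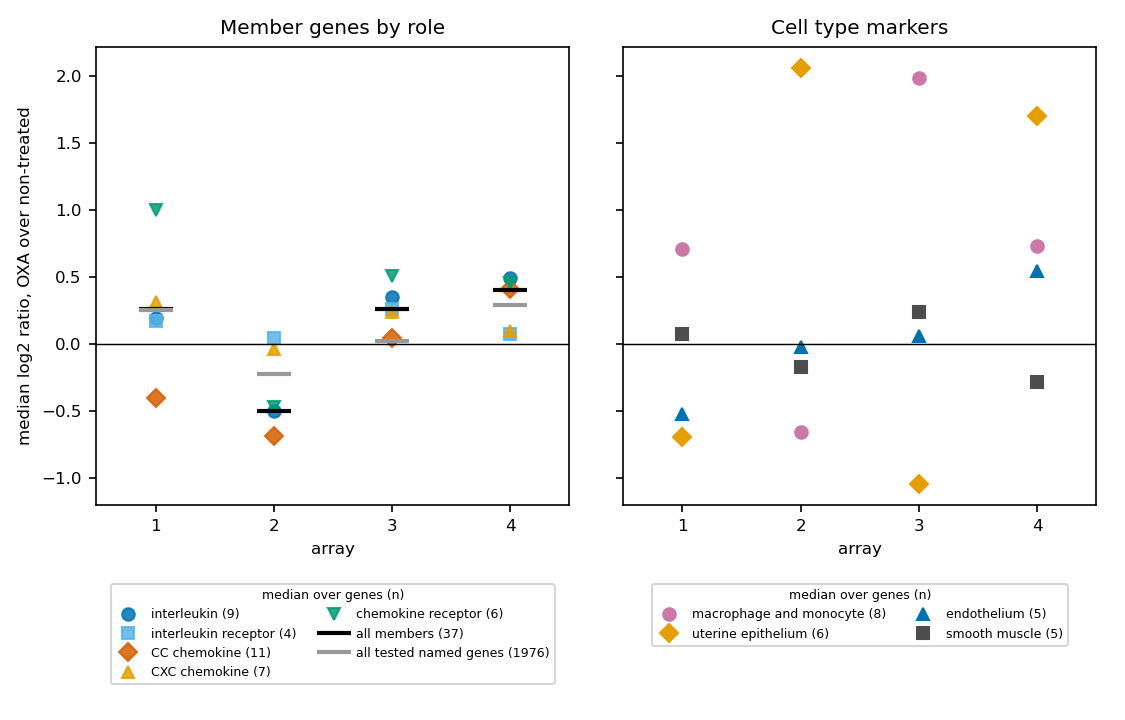
Median log2 ratio of OXA over non-treated on each array, for the members by role beside all tested named genes (left) and for 4 lists of cell type markers (right). The median over members is -0.50 on array 2 and 0.26 to 0.40 on the others, and macrophage markers are below 0 on array 2 only.

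The labelled tissue was checked against smooth muscle markers. All 5 on the array were tested and bright, with medians of 0.07, -0.17, 0.23 and -0.28. Uterine epithelium and fibroblast markers were detected as well, so the explants held more than muscle.

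Expression of the members differed between the arrays before any comparison with OXA. The range over the 4 non-treated channels, each set to its own median, had a median of 1.46 on the log2 scale over the 37 genes, beside 0.91 over all tested named genes. It exceeded 2, a 4-fold range, for 13 members (35.1%) and for 8.11% of named genes. Animal, array and dye cannot be told apart in this range. The widest were CCL20 with 4.54, CCL8 with 4.13, CCL3L1 with 3.79, CXCL14 with 3.25 and IL1B with 3.04. The lowest channel of CCL3L1, that of array 3, read 35.6 and was not well above background. The same holds for IL10, which had a range of 2.11 and read 20.1 there. These ranges were not matched for brightness. For CCL8 the non-treated channels read 1568, 96.3, 90.3 and 444 on arrays 1 to 4. CCR10, with 0.26, and CCL25, with 0.41, had the narrowest. The size of the log2 ratio within an array had a median of 0.60 over members, beside 0.37 over named genes.

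The ratios of members also spread more between arrays, with a median SD of 0.71 beside 0.52 over named genes and 0.57 over all tested probes. Dim probes spread more, so tested probes were split into 3 equal groups by brightness. In the dim group the median SD was 0.79 for 12 members and 0.72 for all probes, in the middle group 0.78 for 16 members and 0.59 for all, and in the bright group 0.58 for 9 members and 0.44 for all. The members' median lay above that of all probes in each group.

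Different probes of a gene read the same labelled RNA, and their agreement gives a measure of the error between probes within an array. Error that all probes of an array share does not enter it. In 9 member genes with 2 tested probes, the log2 ratios shared a sign in 33 of 36 gene and array pairs, with a median gap of 0.13. The largest gap on any array was 0.08 for CXCL2, 0.13 for IL15 and 0.15 for CCR1. The widest of all was 0.72, for CCL2 on array 1, and the 2 CCL2 probes averaged -0.13 and 0.22. CCL5 averaged -0.06 with its brighter probe and 0.11 with the other.

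**Figure D5:**
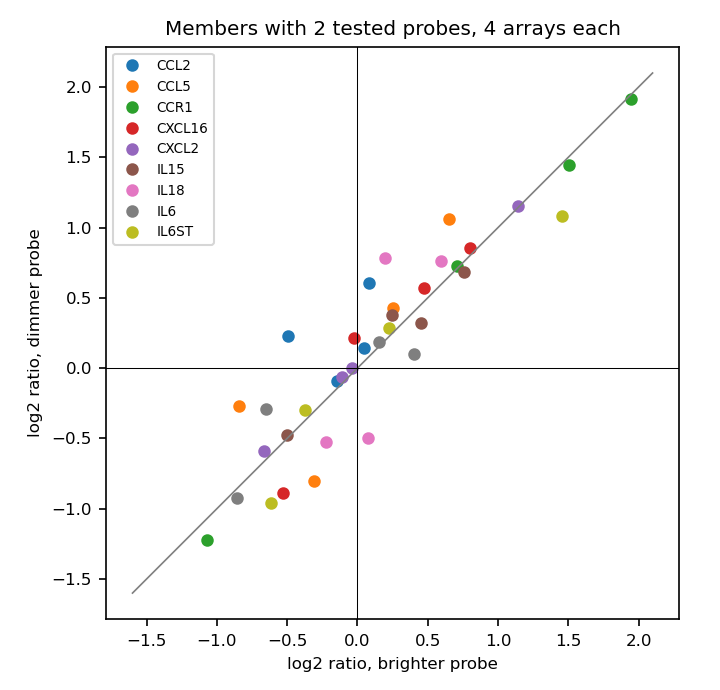
Log2 ratios of the dimmer against the brighter tested probe for the 9 members with 2 tested probes, with 4 arrays per gene and the line of equal values. Most points lie near the line, with a median gap of 0.13, and CCL2 on array 1 lies furthest from it, at 0.72.

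Genes that act before or after the members were taken from 4 lists, and 0 of their tested genes were called in either direction. Of 18 listed JAK-STAT genes 12 were on the array and 10 tested, with a median of 0.00 and 5 means above 0. JAK1, a kinase of many interleukin receptors, had 0.36 ± 0.29 (SD, n = 4) and JAK2 had -0.33 ± 0.79. STAT3, which transmits interleukin-6 and interleukin-10 signals, had -0.60 ± 1.21, with -2.33 on array 1, and STAT5A had 0.35 ± 0.56. Of 22 listed genes between Toll-like or interleukin-1 receptors and NF-kappaB, 12 were on the array and 10 tested, with a median of 0.12 and 7 means above 0. TNFAIP3, a feedback inhibitor of NF-kappaB, had 1.03, 0.83, 0.56 and 1.54, a mean of 0.99 ± 0.41, and NFKBIA, another, had 0.28, 0.96, 0.05 and 0.61, a mean of 0.47 ± 0.40. With array 2 turned these means are 0.57 and -0.01. As labelled, 4 of the 10 tested genes of this list were positive on all 4 arrays, TNFAIP3, NFKBIA, TRAF6 and TAB1, and CHUK was negative on all 4. Over all tested named genes, 5.72% were positive and 2.88% negative on every array. These signs were seen in the data and were not tested. None of these genes keeps 1 sign with array 2 turned, and the turned means of TRAF6, TAB1 and CHUK are 0.12, 0.09 and -0.57. CHUK, a kinase of the pathway, had -0.69 ± 0.48 and the adaptor TRAF6 had 0.25 ± 0.14.

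The list of other cytokines and their receptors had 15 of 25 genes on the array and 13 tested, with a median of 0.08 and 9 means above 0. TNF had 0.35 ± 0.43 (SD, n = 4) and its receptor TNFRSF1B 0.86 ± 0.78, while TGFB1 had 0.33 ± 0.57 and IFNGR2, a chain of the interferon gamma receptor, 0.26 ± 0.29. IFNG itself was not detected often enough for a test. Of 15 other genes of the chemokine system 10 were on the array and 7 tested, with a median of 0.05 and 4 means above 0. PPBP, a neutrophil-attracting platelet chemokine, had 1.01 ± 1.15, and ACKR3, a scavenger of CXCL12, had 0.32 ± 0.28. ACKR4, a scavenger of CCL19, CCL21 and CCL25, had -0.93 ± 2.74, and the G protein subunit GNAI3 had -0.49 ± 0.69. The medians of the 4 lists lay between 0.00 and 0.12, beside 0.08 over all tested named genes and 0.12 over the members.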

How the data were processed

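Scanner files of 4 arrays (43603 probes) hold processed signal intensity on a linear scale, detection flags and log10 ratios (Cy5 over Cy3), all deposited as Agilent Feature Extraction 10.7.3.1 wrote them, per the file headers. The authors' deposited value table holds log2 ratios, whose scale and direction the labels do not describe. Set against the scanner ratios, it had a slope of 1 (arrays 1 and 3) or -1 (arrays 2 and 4), so it runs as OXA over non-treated as labelled, and its column medians were 0.10, 0.10, -0.19 and 0.07, with no further centring found. It was used as deposited. All arrays shared 1 slide and 1 scan. Agilent's processing corrects background and dye bias per array, which can shift dim probes and global ratios.

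Probes were named through unversioned RefSeq accessions and the RefSeq table of Sscrofa11.1, used for names only, which named 6700 probes and left 36903 unnamed. Probes with the flag for well above background in at least 3 of the 4 channels of a group were tested (19505, 44.7%) with limma 3.58.1 in R 4.3.3 (OXA and dye terms, 2 residual and 4.13 prior degrees of freedom, two-sided, Benjamini-Hochberg over all tested probes, threshold 0.05). The fit was tested on simulated data. Every member with a tested probe was named, except 1 that is counted but not reported here, as were the up to 4 smallest p-values of each pathway list. The members and lists were chosen with earlier results of these data known. The number of arrays limits the precision, and p-values measure the spread between arrays only. An exact sign test on 4 arrays cannot go below p = 0.125. Alternatives were median centring, normexp with loess (offset 50), plain background subtraction, no dye term, OXA always in Cy5, no filter, a stricter filter, leaving out each array, the mean of a gene's probes and, added after seeing the data, turning array 2.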

Additional observations from a re-analysis of the deposited data

Results flagged for a closer look

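The median log2 ratio over the 37 member genes stood apart on array 2, at -0.504, beside 0.259 to 0.403 on the other 3 arrays (Dixon's ratio 0.841, above the 95% critical value for 4 values). It was 1 of 38 sets of 4 array values looked at, the median and the 37 single genes, and chance sets apart about 5% of such sets. Over all tested named genes the medians were 0.25, -0.22, 0.02 and 0.29. With median-centred ratios the members' median on array 2 is -0.46, and the array still stands apart (ratio 0.838). With normexp and loess it is -0.22 (ratio 0.709), and with plain background subtraction it is -0.28, and in neither does any array stand apart. With the array turned its median is 0.50, and no array stands apart. The part of the array's orientation or hybridisation in this value was not tested.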

How the results depend on the processing

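The count of called probes was 0 in the fit with all 4 arrays under every alternative with a filter, without a filter and with array 2 turned, and 1 to 1108 without 1 array, highest without array 2. Member probes called were 0 in these fits and 0 to 2 without 1 array, the 2 being those of CCR1 without array 2. Each fit without 1 array had infinite prior degrees of freedom and so used a common variance for every probe. Without a filter 68 member genes enter, against 37 as reported and 30 under the stricter filter, since all probes then count. At an unadjusted p under 0.05, limma held 1 member probe as reported, 0 without a dye term and 2 with normexp and loess. It held 5 with OXA always in Cy5. With array 2 turned it held 10, all 10 higher, beside 5107 of all probes (26.2%) in either direction. The lowest adjusted p in that fit was 0.12, and 0.0877 with the dye term left out too. The median over members moved between -0.12 (without array 4) and 0.31 (without array 2), less than the SD of the array medians, 0.41, from 0.12. Both ends are medians of limma estimates with the dye term, not of plain means. In such an estimate the array left alone in its dye orientation weighs as much as the other arrays together. The sign of the mean changed for 0 of 37 genes with median centring, 3 with normexp and loess and 5 with plain background subtraction. It changed for 13 with OXA always in Cy5 and 14 with array 2 turned. Without arrays 1 to 4, the limma estimate had another sign than the mean of all 4 arrays for 8, 8, 8 and 11 genes. In these last 4 fits no estimate lay as far as the gene's SD from that mean. With 4 arrays and a dye term the shift cannot reach the SD, so this is no measure of robustness. Each ratio is taken within an array, so every fit is already paired by array. No further pairing was possible, since replicate numbers occur in 1 group only. Signal near background limits the ratios of CCL3L1, CCL8, CCL14, CCR10, IL10 and IL13RA1.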
